A study of Homo sapiens with 6 samples.

Results

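Activins are dimers of the inhibin beta subunits, and 10 genes of this signalling system were followed here out of the 61155 gene symbols in the deposited table: the beta subunits INHBA and INHBB, the follistatin family members FST, FSTL1 and FSTL3, the type I receptors ACVR1 and ACVR1B, the type II receptors ACVR2A and ACVR2B, and the decoy receptor BAMBI. They were chosen by symbol with their counts in this same knockdown comparison in view, so the change of each in that comparison is a description and carries no test. RNA came from MDA-MB-231, an established human line of invasive breast cancer cells, 48 hours after transfection, in 3 control libraries (plko) and 3 libraries of cells with VASP knocked down (shVASP). VASP is an actin regulator that promotes filament elongation. The titles name the hairpin vectors plko and shVASP, whereas the treatment protocol speaks of small interfering RNAs given with Lipofectamine, 1 against VASP and 1 as negative control, and the libraries fall into the same groups by either. All 3 control columns have names built on 1 control sample's title, so they may be repeats of 1 culture, and nothing in the labels says that any of the libraries came from separate cultures.

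Activin A is a dimer of the INHBA product and activin B of the INHBB product, and a beta subunit joined to the alpha subunit INHA gives an inhibin instead. Activins bind the type II receptors ACVR2A or ACVR2B, which recruit and phosphorylate a type I receptor, chiefly ACVR1B (ALK4), and this activates the transcription factors SMAD2 and SMAD3. Follistatin (FST) and FSTL3 wrap around activins outside the cell and block receptor binding, while BAMBI resembles a type I receptor without a kinase. In breast cells the pathway is known for both growth restraint and roles in invasion.

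VASP mRNA stood at 164 ± 9.04 CPM (counts scaled to library size, SD, n = 3) in control and 12.7 ± 0.355 CPM (SD, n = 3) in knockdown libraries, 12.9-fold lower. Each library held 28856610 to 30055503 counts, and the levels here are CPM scaled by TMM, a correction for library composition. VIM, CD44 and EGFR, which this line is known to express, summed to 2805 to 2851 CPM in control and 2974 to 3006 CPM in knockdown libraries, with EGFR going from 607 to 715 CPM. The 5 markers known to be low or absent in this line (ESR1, PGR, ERBB2, CDH1 and EPCAM) summed to 112 to 116 and 100.4 to 108 CPM, nearly all of it ERBB2 at 107 and 97.8 CPM, with EPCAM at 6.42 and 5.43 CPM and the other 3 under 1 CPM on average. Of 4 fibroblast markers DCN and LUM had no count in any library, and the 4 summed to 5.57 to 6.52 CPM in control and 5.77 to 6.02 CPM in knockdown libraries. The 3 endothelial markers summed to at most 3.43 and 2.44 CPM, and the 3 leukocyte markers to at most 3.07 and 2.90 CPM, in control and knockdown libraries. In bulk RNA, fewer cells that express a gene and less RNA of it per cell cannot be told apart.

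Some stretches of sequence are printed here beside the results that follow. The first set is shown because INHBB and INHBA moved in opposite directions: the 250 bases before the RefSeq start of each gene (GRCh38.p14, 5′ to 3′ on the gene's own strand), with every match to GGGCGG (the core of a GC box), CAGAC (a SMAD-type word) or TGANTCA (an AP-1 word) on either strand in capitals, overlapping matches included. The INHBB stretch lies at chr2:120345886-120346135 (plus strand) and the INHBA stretch at chr7:41703091-41703340 (minus strand), inside the span that GENCODE gives the gene.
INHBB: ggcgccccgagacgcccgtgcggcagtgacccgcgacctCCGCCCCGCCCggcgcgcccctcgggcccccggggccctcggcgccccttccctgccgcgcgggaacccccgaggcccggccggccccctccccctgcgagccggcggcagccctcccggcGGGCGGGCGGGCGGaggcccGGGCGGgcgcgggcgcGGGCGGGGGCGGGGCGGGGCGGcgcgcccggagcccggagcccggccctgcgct
INHBA: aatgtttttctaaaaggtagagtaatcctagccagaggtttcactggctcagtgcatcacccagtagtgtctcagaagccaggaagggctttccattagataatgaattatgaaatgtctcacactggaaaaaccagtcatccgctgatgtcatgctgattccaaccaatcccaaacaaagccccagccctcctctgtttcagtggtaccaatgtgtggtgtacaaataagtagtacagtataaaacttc
The INHBB stretch was 89.6% G and C and held 46 CG pairs. It had 10 matches to GGGCGG and none to CAGAC or TGANTCA. The INHBA stretch was 42.8% G and C, held 1 CG pair and had no match to any of the 3 words. The windows of the other 8 genes held 0 to 5 matches to GGGCGG each. These were 5 for ACVR2B, 4 each for FSTL3 and BAMBI, 3 and 0 for ACVR1B, and 2 for FST. FSTL1 had 1, ACVR2A had 0, and the windows of ACVR1 had 2, 0 and 0. CAGAC had 2 matches in BAMBI and 1 each in 1 window of ACVR1 and 1 of ACVR1B. TGANTCA had 1 match in FST and 1 in another window of ACVR1. In knockdown INHBA, ACVR2B, FSTL3, ACVR1B and FSTL1 lay below every control library, INHBB and BAMBI lay above, and FST, ACVR1 and ACVR2A overlapped. Over all tested genes 23.5% lay below every control library and 24.1% above. Of 35116 promoter windows of the same length, 42.6% held GGGCGG, 38.0% CAGAC and 6.57% TGANTCA. A match is a string of letters and not a shown binding site, and the part of these words in any change was not tested.

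The second set is shown because 3 of the 10 genes, FSTL1, ACVR1B and ACVR2B, have GTCGTC in their 3′ UTR (GENCODE 29), a 6-base word singled out earlier on these same data. Each is printed in 30 bases of the transcript with the word in capitals, at chr3:120394778-120394807 (minus strand), chr12:51994787-51994816 (plus strand) and chr3:38483668-38483697 (plus strand) on GRCh38.
FSTL1: aatagggcagctGTCGTCtatgccgtagaa
ACVR1B: gtcgggggtgtgGTCGTCatgctgtccgtg
ACVR2B: ttctctttgtttGTCGTCtcagaatctgtg
Of 12628 tested genes with an annotated 3′ UTR, 769 (6.09%) held this word.

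INHBB was the gene of the set that rose, rose and fell being written of genes that passed an adjusted p of 0.05 by edgeR's quasi-likelihood test over all 16633 genes tested. INHBB (ENSG00000163083, GRCh38 chromosome 2, 120346136 to 120351803, plus strand, exons of 3206 bases in all) had 40, 27 and 25 counts in control libraries 1 to 3 and 125, 121 and 96 in knockdown libraries 1 to 3. As levels these were 1.37, 0.931 and 0.864 CPM in control and 4.08, 4.09 and 3.27 CPM in knockdown. Every knockdown library lay above every control library, with control library 1 the highest of its group. The fold change of INHBB was 3.60 (log2 fold change 1.85, SE 0.18), a log2 fold change above that of 99.95% of the 16633 genes tested, with sign, and the log2 fold change ran from 1.73 to 2.08 over 10 other ways of processing. Its control counts of 25 to 40 limit the precision of that fold.

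INHBA moved the other way and by less. INHBA (ENSG00000122641, chromosome 7, 41667168 to 41705834, minus strand) stood at 3.43, 3.07 and 3.49 CPM in control and 1.63, 2.60 and 2.86 CPM in knockdown libraries. The groups did not overlap, and knockdown library 1 was the lowest. INHBA fell 1.41-fold (log2 fold change -0.50, SE 0.17). Without knockdown library 1 the log2 fold change was -0.28 and the gene no longer passed, and it also missed the threshold without control library 1 (-0.47) and with DESeq2 (-0.48). INHBA-AS1, an antisense gene with 1 or 2 counts per library, overlaps 248 of its 8284 exon bases, and strand was ignored in counting.

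Per kilobase of merged exon, INHBB overlapped INHBA in control and stood above it in knockdown. The divisor holds every annotated exon base of a gene (8284 for INHBA, 3206 for INHBB), so comparing genes on this scale is approximate. In control, INHBA stood at 0.402 ± 0.027 and INHBB at 0.329 ± 0.086 CPM per kb (SD, n = 3), with overlapping ranges. In knockdown INHBA stood at 0.285 ± 0.078 and INHBB at 1.19 ± 0.147 CPM per kb (SD, n = 3), with ranges apart. INHBB made up 50.8%, 43.9% and 39.0% of the summed beta subunit level in control libraries 1 to 3 and 86.6%, 80.2% and 74.7% in knockdown libraries 1 to 3. The sum of both went from 0.731 ± 0.097 to 1.47 ± 0.113 CPM per kb (SD, n = 3), so the higher INHBB level more than covered the lower INHBA level. In control both were low: the levels of INHBA and INHBB per kilobase were above those of 16.1% and 13.9% of tested genes.

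**Figure D1:**
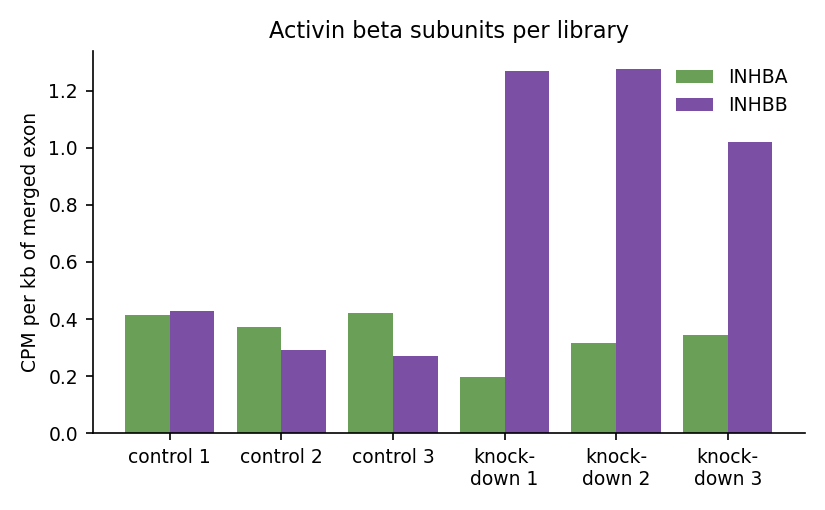
Level of INHBA (green) and INHBB (purple) in each of the 6 libraries, in CPM per kilobase of merged exon on a linear axis from 0. In the control libraries INHBA is at 0.370 to 0.421 and INHBB at 0.270 to 0.428, and INHBB reaches 1.02 to 1.28 in the knockdown libraries, where INHBA is at 0.197 to 0.345.

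Among the follistatin family, FSTL1 fell most and the activin binder FST did not pass. FST (chromosome 5, 53480626 to 53487134) stood at 30.3, 32.3 and 29.8 CPM in control and 30.4, 30.7 and 29.3 CPM in knockdown libraries (log2 fold change -0.03, SE 0.06). These values overlap, and their spread within a group exceeded the difference between groups. FSTL1 (ENSG00000163430, chromosome 3, 120392293 to 120450993), a secreted glycoprotein with a follistatin-like domain, stood at 289, 284 and 294 CPM in control and 162, 160 and 169 CPM in knockdown libraries. The groups lay far apart with little spread within either. FSTL1 fell 1.77-fold (log2 fold change -0.82, SE 0.05) and ran from -0.86 to -0.79 on the log2 scale over 10 other ways of processing.

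FSTL1 also hosts a microRNA, miR-198, in its 3′ UTR, shown here because those bases bear on the count. The mature form (RefSeq, GRCh38.p14, chr3:120395703-120395724, minus strand) has its seed, bases 2 to 8, in capitals.
miR-198: gGUCCAGAggggagauagguuc
FSTL1 shares 62 of its 8467 exon bases with MIR198 and 316 with AC063952.1, and fragments on shared bases could be left uncounted. MIR198 had no count in any library and AC063952.1 had 5 to 10. Because fragments on the shared bases could be left out of the MIR198 count, the lack of MIR198 counts is no measure of miR-198.

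FSTL3, a follistatin-like activin and myostatin binder, stood at 50.3, 54.7 and 52.8 CPM in control and 46.8, 44.7 and 41.4 CPM in knockdown libraries. The groups did not overlap, and FSTL3 (chromosome 19, 676392 to 683392) fell 1.19-fold (log2 fold change -0.25, SE 0.06). A transcript of FSTL3 is 64.4% G and C. With offsets fitted jointly to GC content and length, called the GC and length correction below, the log2 fold change of FSTL3 was -0.02 and it did not pass. The fitted shift for genes of its GC content and length was -0.23, and the parts of GC content and length in it were not separated. The same shift was 0.03 for FSTL1 (44.1% G and C) and -0.11 for INHBB (56.7%), whose log2 fold changes became -0.86 and 1.95. Summed per kilobase, the activin binders FST and FSTL3 went from 28.5 ± 1.12 to 25.5 ± 1.12 CPM per kb (SD, n = 3).

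Of the type II receptors, ACVR2B fell slightly and ACVR2A did not pass. ACVR2B (chromosome 3, 38453890 to 38493142) stood at 29.4, 28.5 and 27.6 CPM in control and 25.8, 22.5 and 25.5 CPM in knockdown libraries (log2 fold change -0.21, SE 0.07). Knockdown library 2 was the lowest, and without it the log2 fold change was -0.14 and ACVR2B did not pass; without control library 1 it was -0.19 and did not pass either. ACVR2A (chromosome 2, 147844517 to 147930826) stood at 9.84, 8.21 and 10.2 CPM in control and 9.98, 10.1 and 10.6 CPM in knockdown libraries (log2 fold change 0.12, SE 0.09, 0.00 after the GC and length correction). Its groups overlap, and 430 of its 6448 exon bases are shared with ORC4, where fragments could be left uncounted. Per kilobase, the 2 type II receptors together went from 3.27 ± 0.164 to 3.15 ± 0.136 CPM per kb (SD, n = 3), a difference within the spread.

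Of the type I receptors, ACVR1B (ALK4), the main activin receptor of this class, stood at 26.3, 27.0 and 26.9 CPM in control and 21.7, 25.0 and 24.2 CPM in knockdown libraries. Its groups (chromosome 12, 51951699 to 51997078) did not overlap, and ACVR1B fell 1.13-fold (log2 fold change -0.18, SE 0.07). That call was held in 2 of 10 other ways of processing. It was lost without control library 1 (-0.19), 2 (-0.17) or 3 (-0.17), without knockdown library 1 (-0.12) or 3 (-0.19), with DESeq2 (-0.17), with no low-count filter (-0.16) and after the GC and length correction (-0.11). ACVR1 (ALK2), which serves bone morphogenetic proteins (BMPs) and also binds activins, stood at 44.6, 38.4 and 38.7 CPM in control and 42.1, 44.1 and 41.5 CPM in knockdown libraries (chromosome 2, 157736444 to 157875862, log2 fold change 0.07, SE 0.06). The ACVR1 groups overlap.

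BAMBI (chromosome 10, 28677510 to 28682932) stood at 4.52, 5.10 and 3.53 CPM in control and 5.15, 5.62 and 5.14 CPM in knockdown libraries. The groups just missed each other, with control library 3 the lowest, and BAMBI did not pass (log2 fold change 0.27, SE 0.13). It passed when control library 2 was left out (0.40) and with the GC and length correction (0.33), and was at 0.14 without control library 3.

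**Figure D2:**
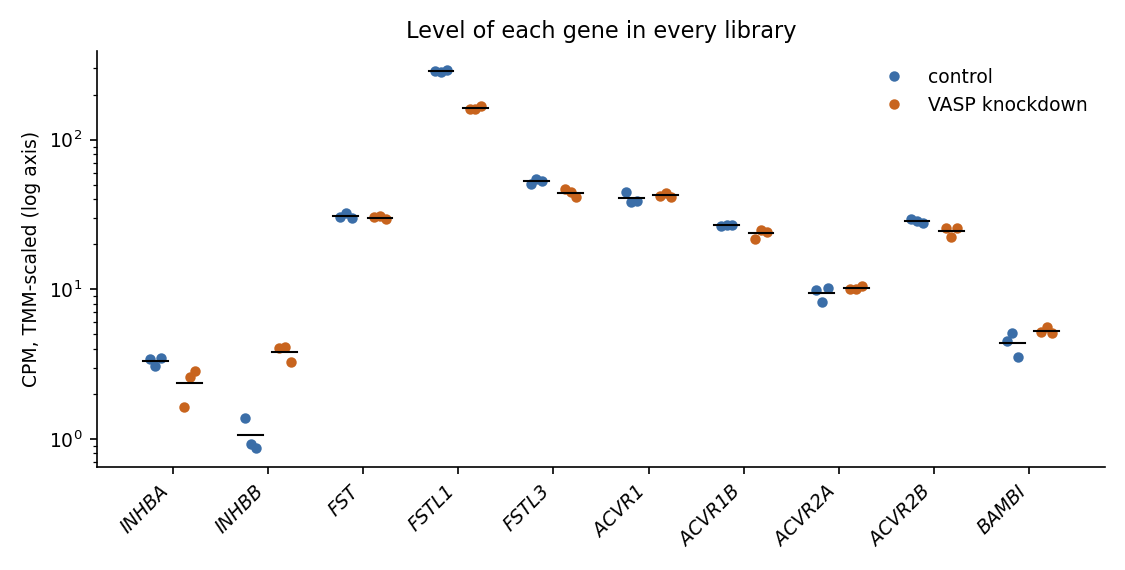
Level of the 10 genes in every library, in TMM-scaled CPM on a log axis, with control libraries in blue, knockdown libraries in orange and a black line at each group mean. INHBB at 0.864 to 1.37 CPM in control and 3.27 to 4.09 CPM in knockdown is the widest gap, and FSTL1 is the highest gene in both groups.

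In all, 1 of the 10 genes passed higher and 5 passed lower at an adjusted p of 0.05 by edgeR's quasi-likelihood test, where 37.2% of all tested genes passed, 18.9% higher and 18.3% lower. Ranges of the groups did not overlap in 7 of the 10, 2 higher and 5 lower in knockdown, where 47.6% of all tested genes showed this, 24.1% higher and 23.5% lower. Since the genes were taken with these results known, nothing is read from those counts. The median log2 fold change of the 10 was -0.10, against -0.01 over all tested genes. With the GC and length correction the counts were 2 higher, INHBB and BAMBI, and 3 lower, INHBA, FSTL1 and ACVR2B, where 29.7% of all genes tested passed (2811 higher and 1995 lower of 16207). The counts were 1 and 3 with DESeq2 (36.5% of all genes tested), 1 and 2 without control library 1 (32.3%), and 1 and 3 without knockdown library 1 (31.2%).

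**Figure D3:**
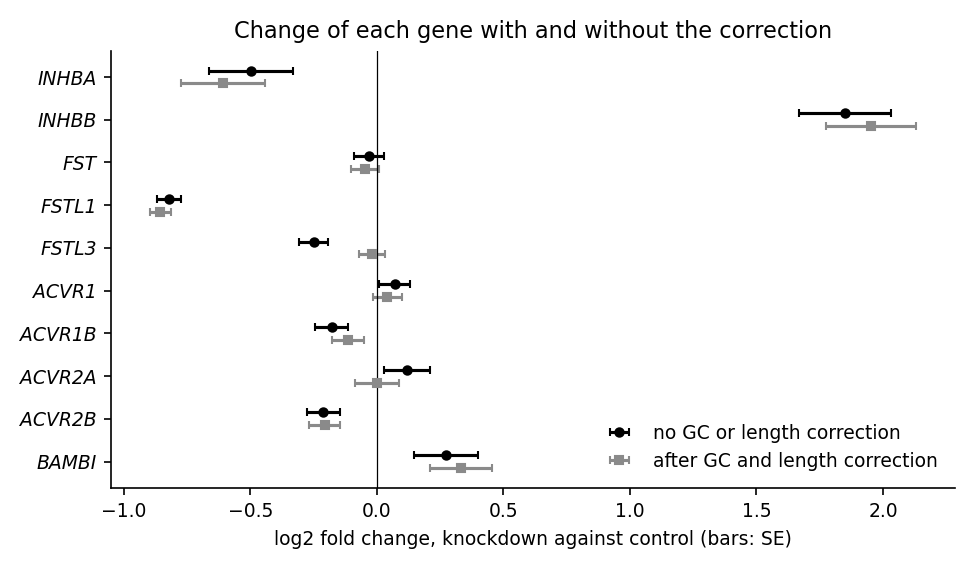
Log2 fold change of each gene, knockdown against control, with its SE as a bar, as fitted on all libraries (black circles) and with the GC and length offsets (grey squares). INHBB stands at 1.85 and 1.95 and FSTL1 at -0.82 and -0.86, while FSTL3 goes from -0.25 to -0.02.

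The order of levels per kilobase in control was FSTL1 (34.1), FSTL3 (17.3), FST (11.2), ACVR1 (10.1), ACVR1B (4.73), BAMBI (2.05), ACVR2B (1.81), ACVR2A (1.46), INHBA (0.402) and INHBB (0.329 CPM per kb). Neighbours overlapped over libraries for FST and ACVR1, for BAMBI and ACVR2B, and for INHBA and INHBB. In knockdown the first 6 kept that order, from FSTL1 at 19.3 to BAMBI at 2.48 CPM per kb. ACVR2A (1.59) and ACVR2B (1.57 CPM per kb) overlapped, and INHBB came before INHBA. The binders were thus more abundant as mRNA than the beta subunits in both groups, FST plus FSTL3 at 28.5 and 25.5 CPM per kb against INHBA plus INHBB at 0.731 and 1.47 CPM per kb.

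The 3 carriers of the 3′ UTR word, FSTL1, ACVR1B and ACVR2B, were all among the 5 genes that fell, and the other 2, INHBA and FSTL3, do not carry it. Of the 769 tested genes with the word 310 fell (40.3%) and 90 rose (11.7%). Of the 11859 without it 2260 fell (19.1%) and 2876 rose (24.3%). Because the word was singled out on these same data, these shares are a description and no test of it. The calls behind these shares carry no GC correction, and genes with and without the word were not matched for 3′ UTR length. The part of the word in the change of any gene was not tested. By closeness of log2 CPM deviations over the 6 libraries, genes among the most like FSTL1 were COL8A1, AC093157.1 and NADK, at distances of 0.11 to 0.15, and NADK carries the word while COL8A1 does not. The genes most like INHBB were GPRC5B, KRT81, L1CAM, UCA1 and APCDD1L, at distances of 0.70 to 1.22, with log2 fold changes of 1.19 to 1.48. With 2 groups of 3 libraries such likeness mostly follows the group difference.

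To place these genes in their pathway, 98 other genes were listed in 7 roles, and 67 were tested. Of these, 17 rose and 17 fell at an edgeR adjusted p under 0.05, 50.7% of the 67 against 37.2% of all tested genes, with a median log2 fold change of 0.02. Over all tested genes 18.9% rose and 18.3% fell, the shares against which the counts of each list stand. Among the 12628 tested genes with an annotated 3′ UTR, 23.5% rose and 20.4% fell. The lists were drawn up with earlier results of these data known, so nothing is read from the difference in shares. After the GC and length correction 11 of 66 passed higher and 12 lower, where calls over all genes went from 37.2% to 29.7%. Of the 34 that passed, 15 did so in all 10 other ways of processing; the untested genes of these lists averaged at most 0.328 CPM.

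Ligands that use the same type II receptors had 1 of 7 tested members up and 2 down, and 2 up and 2 down with the GC and length correction. BMP2, a bone morphogenetic protein, went from 25.4 ± 2.25 to 19.7 ± 0.227 CPM (log2 fold change -0.37, SE 0.07, edgeR adjusted p = 0.00024), and BMP4 fell too (-0.27, SE 0.06, edgeR adjusted p = 0.0014). BMP6 rose from 0.241 ± 0.0605 to 0.492 ± 0.0609 CPM (SD, n = 3, edgeR adjusted p = 0.027). BMP6 did not pass without control library 1 (log2 fold change 0.91) or 2 (0.92), nor without knockdown library 2 (0.95) or 3 (0.99), nor with no low-count filter (1.04), against 1.01 in all 6. DESeq2 gave BMP6 no adjusted p, and the filter at 1 CPM left it untested. INHA, the inhibin alpha subunit, stood at 0.792 ± 0.124 and 0.579 ± 0.0935 CPM (SD, n = 3) and did not pass.

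Other receptors and co-receptors had 4 of 10 tested members up and 1 down, where 37.2% of all tested genes passed. With the GC and length correction 1 was up and none down, where 29.7% of all tested genes passed. TGFBR3L, a co-receptor of inhibin B, fell (log2 fold change -0.53, SE 0.08, edgeR adjusted p = 2.7e-05), but stood at -0.09 with that correction and did not pass. The BMP receptors BMPR1A (0.21, SE 0.05) and BMPR2 (0.16, SE 0.05) and the inhibin A co-receptor TGFBR3, betaglycan (0.16, SE 0.06), rose on the log2 scale with edgeR adjusted p of 0.0028, 0.014 and 0.027. Corrected, they stood at 0.12, 0.05 and 0.12 and did not pass. BMPR2 also missed the threshold without control library 2 (0.14), knockdown library 1 (0.15) or knockdown library 3 (0.14), and TGFBR3 without control library 2 (0.13) or knockdown library 1 (0.12). ACVRL1 (ALK1), a type I receptor named here after its value was seen, rose at an edgeR adjusted p of 0.048, which leaving out any 1 library moved to between 0.058 and 0.14. Its call was held in 2 of 10 other ways of processing. These were the GC and length correction (log2 fold change 0.61) and the filter at 1 CPM (0.50).

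Other antagonists and follistatin-domain proteins had 2 of 6 tested members down and none up by edgeR, and as many with that correction, though not both the same genes. CHRDL1, a BMP antagonist related to chordin, fell from 40.7 ± 1.04 to 31.5 ± 1.92 CPM (SD, n = 3, log2 fold change -0.37, edgeR adjusted p = 3.5e-05). NBL1 (DAN), another BMP antagonist, fell (-0.19, edgeR adjusted p = 0.026), but was at 0.06 after the GC and length correction and did not pass without control library 1 (-0.17) or 2 (-0.18), nor without knockdown library 1 (-0.17) or 3 (-0.12), nor with DESeq2 (-0.17). FSTL5 had no count in any library, and FSTL4 lay under 0.1 CPM.

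SMAD proteins and their regulators had 8 of 23 tested members up and 4 down, where 37.2% of all tested genes passed. After the GC and length correction 2 were up and 2 down, where 29.7% of all tested genes passed. The deubiquitinase USP15 (log2 fold change 0.30, edgeR adjusted p = 0.00032) and the SMAD4 regulator TRIM33 (0.24, edgeR adjusted p = 0.00031) rose, and stood at 0.19 and 0.13 after the correction, still past the threshold. SMAD5, which BMP receptors activate, rose too (0.23, edgeR adjusted p = 0.0016), but not after the correction (0.10). SMAD2, which activin receptors activate, fell from 86.3 ± 1.14 to 78.0 ± 1.20 CPM (SD, n = 3, log2 fold change -0.15, edgeR adjusted p = 0.017). SMAD2 missed the threshold without knockdown library 1 (-0.15) or 2 (-0.12) and with no low-count filter (-0.13). Its call was held in 7 of 10 other ways of processing, with -0.21 after the correction. SMAD7, the inhibitory SMAD, fell (-0.35, edgeR adjusted p = 0.00089, corrected -0.23), as did the corepressor SKI (-0.25, edgeR adjusted p = 0.00078), which did not pass after the correction (-0.11). TGIF2, a SMAD corepressor named here after its value was seen, fell too (-0.16, edgeR adjusted p = 0.027), a call held in 4 of 10 other ways of processing. SMAD3 stood at 253 ± 9.96 and 246 ± 9.04 CPM (SD, n = 3) and did not pass.

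Genes known to respond to SMAD2 and SMAD3 moved in both directions, with 3 of 15 tested up and 5 down, and 3 of 14 up and 4 down when corrected, though not all the same genes. KLF10, an early TGF-beta response gene, rose from 96.6 ± 4.65 to 128 ± 7.41 CPM (SD, n = 3, log2 fold change 0.40, edgeR adjusted p = 2.9e-06). The cytokine IL11 (0.24, edgeR adjusted p = 0.0067) and the SMAD corepressor SKIL (0.20, edgeR adjusted p = 0.014) rose too, SKIL not after the GC and length correction (0.06) or without knockdown library 3 (0.16). The matrix protein TGFBI (-0.48, edgeR adjusted p = 8.2e-06), the latency protein LTBP3 (-0.50, edgeR adjusted p = 0.00056) and the AP-1 subunit JUNB (-0.27, edgeR adjusted p = 0.00066) fell, with values of -0.43, -0.20 and -0.02 after the correction, the last no longer past the threshold. SMAD7, given above, is the fourth that fell, and ANGPTL4, a secreted lipase inhibitor named here after its value was seen, the fifth (-0.77, edgeR adjusted p = 0.0014, -0.55 corrected).

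Genes known to respond to SMAD1 and SMAD5 had 2 of 7 tested up and 2 down, and 3 up and 2 down when corrected. MSX2 rose from 0.792 ± 0.0945 to 1.56 ± 0.0950 CPM (SD, n = 3, edgeR adjusted p = 0.00069) and ID2 from 1.49 ± 0.0564 to 2.42 ± 0.499 CPM (SD, n = 3, edgeR adjusted p = 0.0038). HEY1 (log2 fold change -0.65, edgeR adjusted p = 0.0057) and ATOH8 (-0.42, edgeR adjusted p = 0.015) fell, ATOH8 not past the threshold without control library 1 (-0.28) or 2 (-0.40). ID1, the most abundant of them, stood at 137 ± 4.74 and 139 ± 4.60 CPM (SD, n = 3) and did not pass (log2 fold change 0.02), but passed higher with the GC and length correction (0.16, edgeR adjusted p = 0.0076). Of 4 convertases that cleave such precursors, FURIN fell from 115 ± 2.60 to 88.2 ± 1.62 CPM (SD, n = 3, log2 fold change -0.38, edgeR adjusted p = 1.6e-06, -0.21 with the GC and length correction). PCSK7, which shares exon bases with TAGLN, fell as well (-0.24, edgeR adjusted p = 0.021), but not past the threshold after the correction (-0.21), without control library 2 (-0.22) or 3 (-0.19), or without knockdown library 1 (-0.19) or 2 (-0.18). Exons of BMP4, BMP6, TGFBR3L, FSTL4, FSTL5, NBL1, SMAD3, SMAD5, TGIF2, USP15, JUNB and ID2 also overlap other symbols, and shared fragments could be left uncounted.

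**Figure D4:**
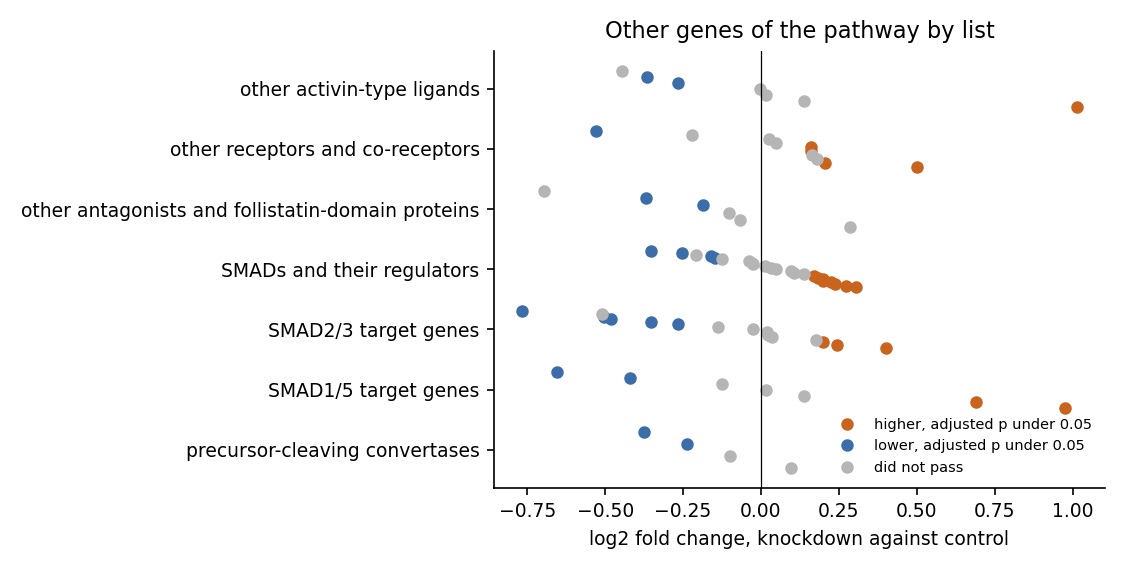
Log2 fold change, knockdown against control, of the 67 tested genes of 7 lists, 1 point per gene and list, coloured by whether the gene passed higher (orange), lower (blue) or did not pass (grey). In every list the points lie on both sides of 0 and calls of both directions occur in 5 of the 7.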

How the data were processed

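The deposited values are raw counts for each gene symbol. Per the file headers, the authors ran featureCounts 1.6.4 on paired fragments over GENCODE release 32 exons, patch and alternate contigs included, in GRCh38. The submitters' processing notes list STAR 2.7.1a and Trim Galore 0.6.4, without settings. With no strand or multi-mapping option set, reads of both strands count alike, and a fragment that aligned to several places was left uncounted. A fragment that fell on several symbols could be left uncounted too. Libraries held 28856610 to 30055503 counts, and 3 counts are worth 0.0998 to 0.104 CPM. Libraries of 1 group differed beyond sampling noise (chi-square over its degrees of freedom 5.67 to 9.73), so each library was kept as 1 replicate, and p-values measure only the spread between libraries, which may be technical.

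From the counts, filterByExpr kept 16633 genes, all 10 members among them, which were scaled by TMM and tested with edgeR 4.0.16 (glmQLFit, robust, glmQLFTest, two-sided, Benjamini-Hochberg over all 16633, threshold 0.05) in R 4.3.3. The SE is the size of the log2 fold change over the square root of F. CPM per kb divides by the deposited merged exon length, which may differ from the length of the transcript expressed. Orders, sums and shares across genes on that scale are therefore approximate. The test was tried on simulated data. Alternatives were DESeq2 1.42.0, no low-count filter, 1 CPM in 3 libraries, each library left out, and per-library offsets from natural splines (5 degrees of freedom each) of GC content and exon length, with GC content of the longest GENCODE 29 transcript of each symbol (16207 tested genes matched). Motifs were searched in 250 bases before each RefSeq start, with all 10 members matched.

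The members and lists were chosen with earlier results of these data known. Besides the members and VASP, the genes named are up to 3 in each direction per list with the smallest adjusted p, and the 5 genes of mean log2 CPM 1 or more nearest to the member that rose most and to the one that fell most, of which some are not reported here. INHA, FSTL4, FSTL5, SMAD3 and ID1, which did not pass or were not tested, and ACVRL1, TGIF2 and ANGPTL4 were named after their values were seen.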

Additional observations from a re-analysis of the deposited data

How the results depend on the processing

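INHBB and FSTL1 passed in all 10 alternatives and none of FST, ACVR1 and ACVR2A passed in any. Among the 10 members, 2 passed higher after the GC and length correction, and 1 to 2 with a library left out. Lower were 3 with DESeq2, 3 after the GC and length correction, and 2 to 4 with a library left out. Of all genes tested, 36.5% passed with DESeq2, 29.7% after that correction and 26.4% to 37.6% with a library left out, so nothing is read from these counts. Of the other pathway genes 11 passed higher and 12 lower after that correction, where 29.7% of all genes passed. With a library left out 11 to 17 passed higher and 13 to 16 lower, with 11 higher both without control library 2 (26.4% of all genes) and without knockdown library 3 (29.4%). FST ran from -0.054 to 0.0035 on the log2 scale with a library left out, reversed without control library 2 only. Where a call was lost, the cause was not tested. No paired analysis was possible because the labels name no pairs of control and knockdown libraries. The names of the control columns also do not say which control sample each one is. Control counts of 25 to 40 limit INHBB, and genes under about 0.1 CPM lie at the floor of 3 counts.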
